A study of Mus musculus with 4 samples.

Results

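The laminin chains covered here are Lama1, Lama2, Lama3, Lama4, Lama5, Lamb1, Lamb2, Lamb3 and Lamc1, measured in structures captured from the fetal mouse kidney. Their members were taken as every probe set (a group of short array probes for 1 transcript) whose platform gene symbol is one of these names, which gave 17 probe sets of 9 genes, out of 34945 probe sets and 18193 genes with a single symbol. The study set 1 array of cortical collecting duct (replicate 3 in the labels) beside 3 arrays of the anlage of the loop of Henle (replicates 1, 2 and 3), to find which genes mark each structure. All 4 arrays came from wild-type mice of the outbred CD-1 stock at stage E15.5, counted in embryonic days (Theiler stage 23), with the sex of the fetuses recorded as unknown. For each array about 50 frozen sections from 5 kidneys were pooled after laser capture, which cuts chosen cells out of a stained section under a microscope, and the RNA was amplified over 2 rounds. How the structures were recognised under the microscope is not in the labels, nor is whether pools shared litters, so p-values measure the spread between these pools only, which may be partly technical. In pooled tissue, fewer cells of a type and less RNA per cell cannot be told apart.

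Laminins are the secreted proteins that build the first network of a basement membrane, the sheet of matrix under every epithelium. Each is a trimer of 1 alpha, 1 beta and 1 gamma chain, and many, though not all, are cross-shaped. In the cross-shaped forms the short arms join laminins to each other. The globular end of the alpha chain binds the integrins and dystroglycan of the cell. The alpha chain therefore decides which receptors a laminin engages. In the developing kidney Lama1 is a chain of early nephron basement membranes, and Lama5 is the chain that comes to prevail under most tubules, the collecting duct and the glomerulus.

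Of the laminin genes, Lama5 stood highest in the collecting duct relative to the anlage and Lama1 lowest, so the largest differences in either direction were in alpha chains. Lama5 was 5.29-fold higher in the collecting duct array, and Lama1 was 2.47-fold lower, both lying outside the range of the 3 anlage arrays. The chains that complete the trimers with them differed less or within the spread of the anlage arrays: Lamb1 by 1.04-fold, and Lamc1 by 2.08-fold with a range that overlapped. No laminin gene passed the test over all genes. Limma (a linear model across all genes) called 0 of 12642 genes in either direction at a Benjamini-Hochberg adjusted p of 0.05, a background of 0%. At an unadjusted p under 0.05 it counted 149 genes higher (1.18%) and 282 lower (2.23%), among them 1 laminin gene in each direction, Lama5 and Lama1. Its 2 residual degrees of freedom came from the anlage arrays, so the collecting duct array was assumed to vary as they do.

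Values are given as log2(signal + 109.6) after quantile normalization, where 109.6 is the 25th percentile of the common signal distribution. The offset makes folds of dim probe sets smaller than they would be in plain signal. Levels of different probe sets cannot be set against each other, so order is given only between arrays. Where a gene had more than 1 probe set, the brightest over the 4 arrays stood for it. The limit for testing was a mean of 8.42, the 40th percentile over probe sets, and 8 of the 9 laminin genes (14 of the 17 probe sets) lay above it.

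**Figure D1:**
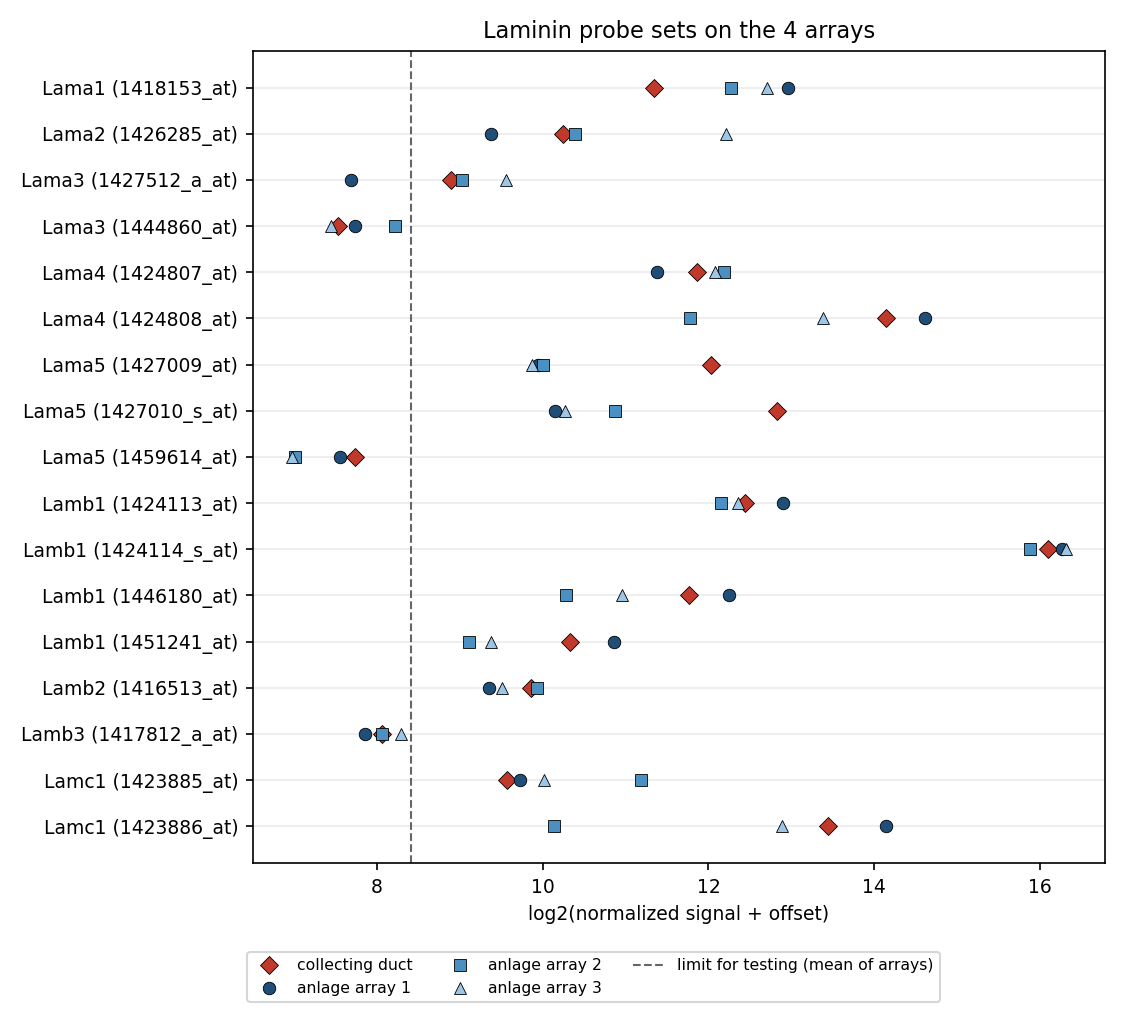
Log2(normalized signal + offset) of the 17 laminin probe sets, with a point for each of the 4 arrays and the probe set number beside the gene; the dashed line is the limit of 8.42 below which the mean of the arrays was not tested. Each of the 3 Lama5 probe sets has its highest point in the collecting duct, while the Lama1 probe set has its lowest there, and anlage array 2 lies apart for Lamc1 and for a Lama4 probe set.

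Marker genes of each structure followed the array labels. Their lists were chosen with earlier results of these data known, so this is not an independent check. All 12 tested markers of the collecting duct were higher in its own array, 11 of them above all 3 anlage arrays, where 17.3% of all tested genes lay above all 3. All 10 tested markers of the loop of Henle lay below all 3 anlage arrays, where the background was 24.3%. The signs of RNA quality differed within the anlage: for Gapdh, the signal near the 3' end over that near the 5' end, a ratio that is larger in degraded RNA, was 12.05 in the collecting duct and 10.3, 54.1 and 26.0 in anlage arrays 1, 2 and 3. Stromal RNA was present in every array. All 10 stromal markers read above 8.42, the limit for testing, in each single array, the lowest value being 10.53 (Dcn in anlage array 2).

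Lama5, the alpha chain of the collecting duct and of mature tubules, read 12.83 on the log2 scale in the collecting duct and 10.15, 10.87 and 10.27 in anlage arrays 1, 2 and 3. The anlage arrays lay close together (10.43 ± 0.39, SD, n = 3), and the collecting duct stood above all of them. The difference was 2.40 ± 0.57 (SE) with a 95% interval from 1.02 to 3.79 (limma, unadjusted p = 0.00532, adjusted p = 0.9999 over all genes). It ranked 42 from the top among the 12642 tested genes. In the deposited signal, before normalization, the same probe set, 1427010_s_at, read 7007 in the collecting duct and 1250, 1542 and 1065 in the anlage. The name ending "_s_at" marks probes that match more than 1 transcript.

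A further tested Lama5 probe set, 1427009_at, has no such ending and gave a similar difference. Its log2 value was 12.03 in the collecting duct and 9.94, 10.003 and 9.87 in the anlage arrays, which had an SD of 0.07. The difference was 2.09 ± 0.56 (SE), 4.27-fold, with an interval from 0.72 to 3.47 (limma at the probe set level, unadjusted p = 0.0100, adjusted p = 1 over 22499 probe sets). At that level limma called 0 probe sets in either direction (0%), and at an unadjusted p under 0.05 it counted 212 higher (0.942%), of which 2 were these Lama5 probe sets, and 331 lower (1.47%), of which 0 were laminin probe sets. The third, 1459614_at, was dim and not tested. It read 7.73 in the collecting duct and 7.56, 7.01 and 6.97 in the anlage. Its deposited signals were 104.2 in the collecting duct and 115.8, 10.4 and 16.4 in anlage arrays 1, 2 and 3. Before normalization anlage array 1 was therefore above the collecting duct for this probe set. With the mean of all 3 probe sets the Lama5 difference was 1.68 in place of 2.40.

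Lama1, the alpha chain of early nephron basement membranes, showed the opposite order and has 1 probe set. It read 11.34 on the log2 scale in the collecting duct and 12.97, 12.27 and 12.71 in anlage arrays 1, 2 and 3, so all anlage arrays lay above the collecting duct. The anlage mean was 12.65 ± 0.35 (SD, n = 3). The difference was −1.30 ± 0.53 (SE), with an interval from −2.59 to −0.01 (limma, unadjusted p = 0.0482, adjusted p = 0.9999 over all genes), and it ranked 472 from the bottom of 12642 genes. At the probe set level the interval ran from −2.64 to 0.03. The deposited signals were 2581 in the collecting duct and 7072, 5138 and 6603 in the anlage.

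The log2 value of Lama5 minus that of Lama1 was also taken within each array. Scaling an array by a constant factor leaves this gap unchanged, save for the offset. Quantile normalization, used here, is not such a factor, so the gap depends on it. With the deposited values and no further normalization, Lama5 differed by 2.36 and Lama1 by −1.23, in place of 2.40 and −1.30. The quantity was chosen after the values were seen and has no test. Since the probe sets differ, its sign has no meaning and only its change between arrays is read. This gap was 1.49 in the collecting duct but −2.82, −1.40 and −2.44 in anlage arrays 1, 2 and 3. Relative to Lama1, Lama5 was therefore 13.1-fold higher in the collecting duct array than in the anlage mean. With the other tested Lama5 probe set the values were 0.69 in the collecting duct and −3.02, −2.26 and −2.84 in the anlage, a 10.5-fold gap. With 1 array against 3, the smallest p of an exact permutation test would be 0.25.

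**Figure D2:**
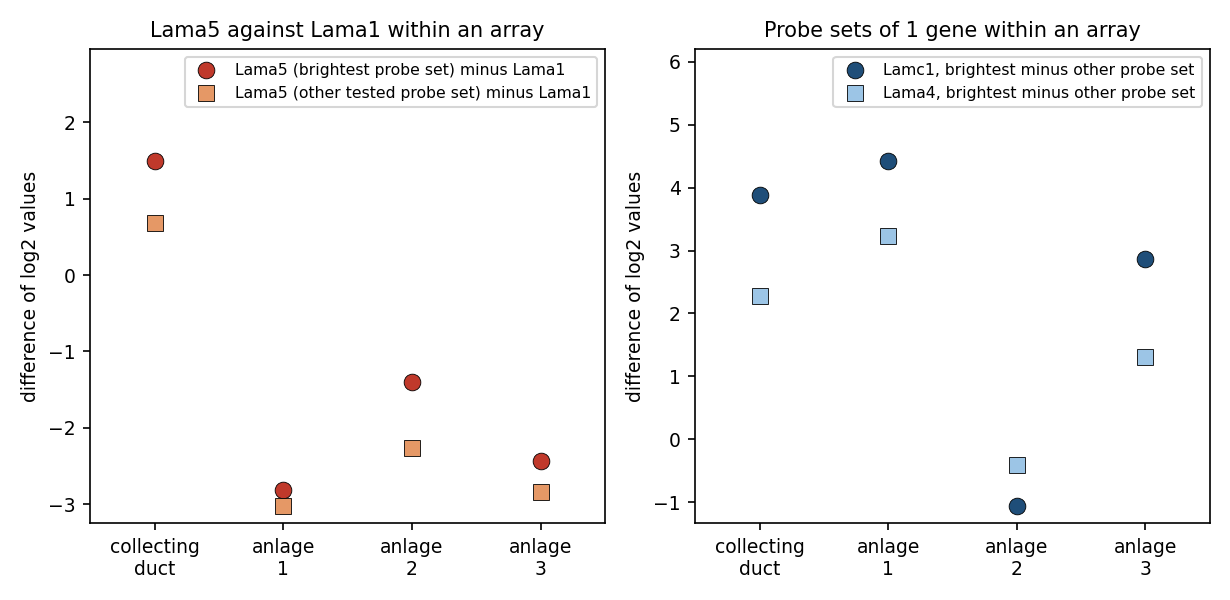
Differences of log2 values within each array, with the arrays on the horizontal axis. Only changes from array to array can be read, not the height itself: left, Lama5 minus Lama1 is higher in the collecting duct (1.49) than in any anlage array for either Lama5 probe set; right, the brightest minus the other probe set of Lamc1 and of Lama4 is lowest in anlage array 2.

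Glomeruli and vessels also make Lama5 and the early nephron makes Lama1, so markers of these cells are given beside them. Of the endothelial markers, 8 of 8 tested were lower in the collecting duct array, 5 of them below all 3 anlage arrays, where 24.3% of all tested genes lay, and the mean over the 9 listed was 8.92 there against 9.71, 10.46 and 10.52. The mean of the 5 measured podocyte markers was 10.19 in the collecting duct and 10.32, 11.71 and 10.41 in anlage arrays 1, 2 and 3. Of the 4 tested, 3 were lower in the collecting duct array, 1 of them below all 3 anlage arrays. Nphs1, which encodes nephrin, lay under the limit for testing. For the early nephron, 4 of 5 tested markers were lower in the collecting duct array, and the mean over the 6 listed was 10.67 against 11.07, 11.44 and 10.74. Proximal tubule markers were lower in the collecting duct array for 7 of 7 tested, with 4 below all 3 anlage arrays. The part of these cells in the Lama5 and Lama1 differences was not tested.

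Lama2, Lama3 and Lama4 did not separate the structures. Lama2, the alpha chain best known from muscle, read 10.25 in the collecting duct and 9.37, 10.40 and 12.22 in anlage arrays 1, 2 and 3. The collecting duct lay within the anlage range, and array 3 was the highest by a wide margin. The difference was −0.42 ± 1.08 (SE), with an interval from −3.06 to 2.23, and it was 0.36 without anlage array 3 and −1.13 without array 1. The mean of the smooth muscle markers was also highest in anlage array 3, at 11.96 against 9.19 and 9.73 in arrays 1 and 2 and 9.11 in the collecting duct. The stromal mean was 14.29 there against 13.21 and 13.09 in arrays 1 and 2 and 13.39 in the collecting duct. Members differed: the smooth muscle marker Des (9.18) and the stromal marker Meis1 (12.45) were lowest in array 3. The stromal markers Foxd1 and Pdgfrb were highest in arrays 1 and 2. All other members of these lists were highest in array 3. The part of these cells in the Lama2 value was not tested.

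Lama3, the alpha chain of the laminin that anchors epidermis, was dim, at 8.89 in the collecting duct and 7.69, 9.02 and 9.55 in the anlage. Its difference was 0.14 ± 0.80 (SE) with an interval from −1.82 to 2.09, and it was −0.42 without anlage array 1 and 0.55 without array 3. A further probe set of Lama3 lay under the limit for testing, at 7.53 against 7.74, 8.22 and 7.45. The collecting duct lay inside the anlage range for either probe set.

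Lama4, a chain of vessels and of mesenchyme, gave different pictures in its 2 probe sets. The brightest, 1424808_at, read 14.14 in the collecting duct and 14.61, 11.78 and 13.39 in anlage arrays 1, 2 and 3, a difference of 0.88 ± 1.03 (SE) with an interval from −1.64 to 3.40. The other, 1424807_at, read 11.86 against 11.38, 12.19 and 12.09, a difference of −0.03 ± 0.59 at the probe set level. Anlage array 2 was thus the lowest array in the first and the highest in the other. The difference of the first probe set was 0.13 without anlage array 2 and 1.59 without array 1 (limma, unadjusted p = 0.060, adjusted p = 0.48), and the mean of both probe sets differed by 0.43.

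**Figure D3:**
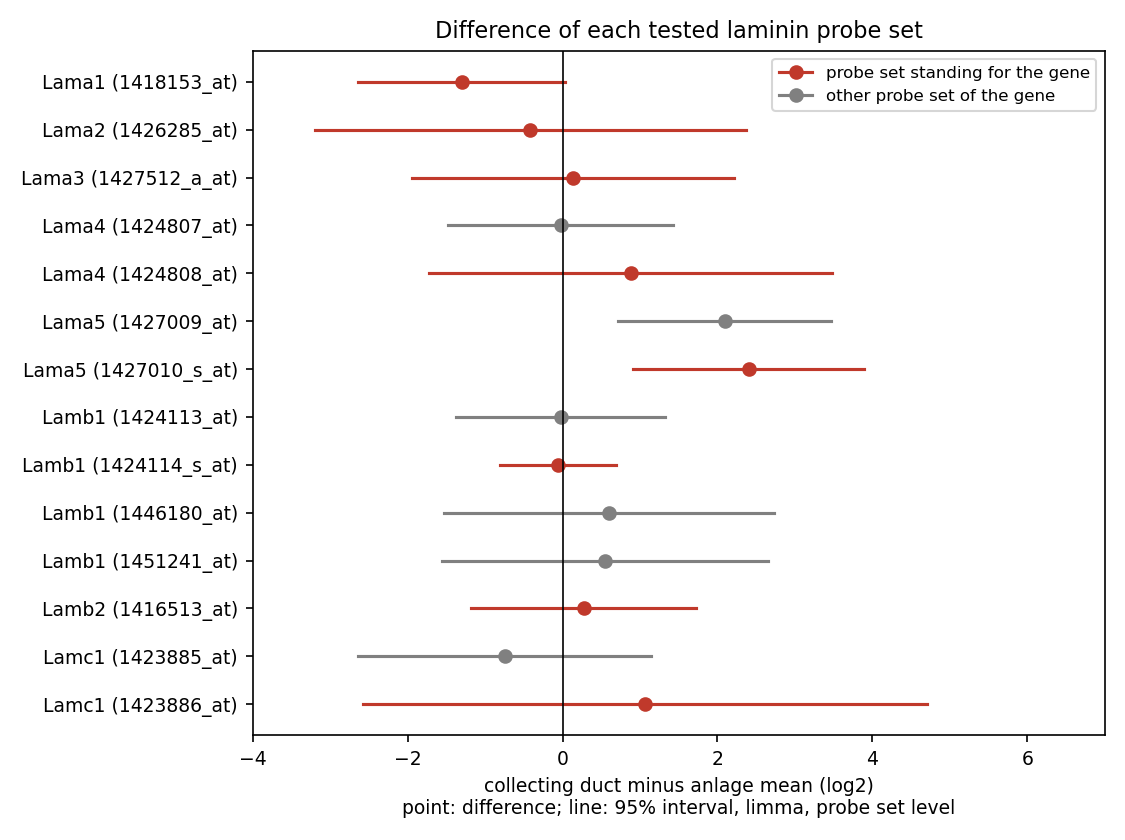
Difference between the collecting duct array and the mean of the 3 anlage arrays for each of the 14 tested laminin probe sets, in log2 units, with 95% intervals from limma at the probe set level; red marks the probe set that stands for its gene. The intervals of the 2 tested Lama5 probe sets lie above 0 and every other interval crosses 0, that of Lama1 only just (−2.64 to 0.03).

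Among the beta chains, Lamb1 is the partner of both Lama1 and Lama5 in most embryonic basement membranes. Its brightest probe set read 16.09 in the collecting duct and 16.26, 15.89 and 16.32 in anlage arrays 1, 2 and 3, so the collecting duct lay inside a narrow anlage range (16.15 ± 0.23, SD, n = 3). The difference was −0.06 ± 0.30 (SE). Its interval, from −0.80 to 0.68, was the narrowest of the tested laminin genes. Limma here lets the spread follow intensity, and without that trend the SE was 0.49, beside 0.51 for Lamb2. This probe set, 1424114_s_at, also has the ending "_s_at". A further probe set, 1424113_at, read 12.44 against 12.90, 12.15 and 12.35, a difference of −0.03. The remaining 2 probe sets of Lamb1 differed by 0.60 and 0.55, with standard errors of 0.86 and 0.85 at the probe set level, and each was lowest in anlage array 2. They were 1.22 and 1.18 without anlage array 1 and 0.15 and 0.20 without array 2. With the mean of all 4 probe sets the Lamb1 difference was 0.27.

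Lamb2, the beta chain of the mature glomerular basement membrane and of synapses, read 9.86 in the collecting duct and 9.35, 9.93 and 9.51 in the anlage, a difference of 0.27 ± 0.54 (SE) with an interval from −1.04 to 1.58, and it ran from 0.16 without anlage array 1 to 0.41 without array 2. Lamb3, the beta partner of Lama3 in epidermis, lay under the limit for testing in every array, at 8.06 in the collecting duct and 7.85, 8.06 and 8.29 in the anlage. For neither gene did the collecting duct leave the anlage range.

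Lamc1, the gamma chain of nearly all laminins outside the epidermis, had tested probe sets that differed in opposite directions. The brightest, 1423886_at, read 13.45 in the collecting duct and 14.14, 10.13 and 12.88 in anlage arrays 1, 2 and 3. Array 2 lay far below the others, which gave an anlage SD of 2.05 and a difference of 1.06 ± 1.44 (SE), with an interval from −2.45 to 4.57. The other, 1423885_at, read 9.57 in the collecting duct and 9.73, 11.19 and 10.02 in the anlage, and there array 2 was the highest. Its difference was −0.75 ± 0.77 (SE) at the probe set level, with the collecting duct below all 3 anlage arrays, as 22.5% of all tested probe sets were.

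The gap between the probe sets of Lamc1, the brightest minus the other, was 3.88 in the collecting duct and 4.42, −1.06 and 2.86 in anlage arrays 1, 2 and 3. For Lama4 it was 2.28 and 3.23, −0.40 and 1.30. Among the 4 arrays, the higher the Gapdh 3' to 5' ratio, the smaller this gap was in either gene. The same ratio for Actb put the arrays in the same order. That for Tfrc did not, being lower in the collecting duct (1.38) than in anlage array 1 (1.42). The part of RNA quality in these gaps was not tested. Without anlage array 2, which had the highest Gapdh ratio, the Lamc1 difference was −0.075 in place of 1.06, and without anlage array 1 it was 2.04. The other probe set differed by −0.29 without array 2 and −1.13 without array 1. With the mean of both probe sets the Lamc1 difference was 0.16.

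Over the family, 5 of the 8 tested laminin genes were higher in the collecting duct array and the median difference was 0.20, against a median of −0.06 over all 12642 genes, of which 5702 were higher. The laminin median was 0.078 without anlage array 1, 0.026 without array 2 and 0.45 without array 3. The collecting duct lay above all 3 anlage arrays for 1 laminin gene (Lama5) and below all 3 for 1 (Lama1), which is 1 of 8 each beside 17.3% and 24.3% of all genes. Of the 5 genes with several probe sets, 4 had probe sets of both signs (Lama3, Lama4, Lamb1 and Lamc1), and Lama5 alone had the same sign in all of its probe sets.

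**Figure D4:**
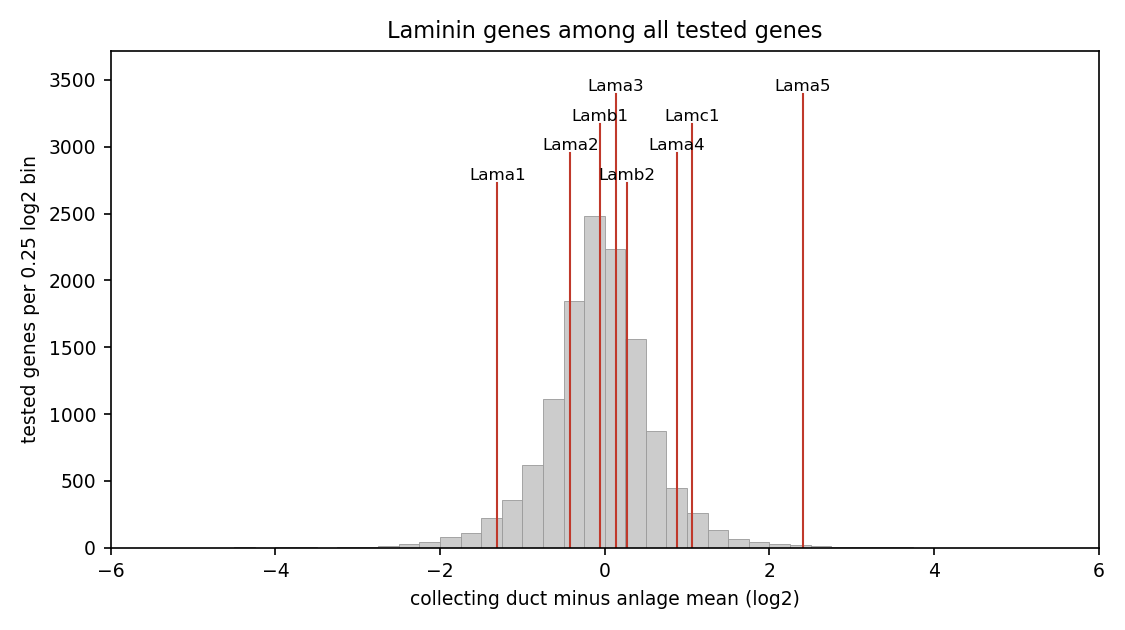
Number of tested genes by their difference between collecting duct and anlage mean, in bins of 0.25 log2 units, with red lines at the 8 tested laminin genes. Lama5 (2.40) lies in the upper tail, Lama1 (−1.30) in the lower part, and the other 6 lie between −0.42 and 1.06.

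The genes whose pattern over the 4 arrays was nearest to that of Lama5 were Fam149a, Scnn1b and Muc20. Likeness was the root mean square distance between log2 values centred on their mean over the 4 arrays, and it was 0.09 for Fam149a, 0.11 for Scnn1b and 0.11 for Muc20. Scnn1b, the beta subunit of the epithelial sodium channel, read 11.26 in the collecting duct and 8.36, 9.19 and 8.79 in the anlage. Nearest to Lama1 were Ankrd33b (0.04), Sgtb (0.06) and Mitf (0.08). Mitf, a transcription factor, read 10.79 in the collecting duct and 12.26, 11.76 and 12.14 in the anlage. With 4 arrays and 12642 genes, near neighbours of this kind can be found for any pattern.

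Promoters are printed for Lama5, the chain that differed most, and for Lamb1, the tested chain that differed least, from the RefSeq start of each gene (GRCm38.p6). RefSeq windows were matched for 5 of the 9 genes (Lama2, Lama5, Lamb1, Lamb2 and Lamb3). Each sequence is the 250 bases before the start, 5′ to 3′ on the gene's strand, with capitals at the GC box GGGCGG on either strand, a site of the Sp family of factors. The Lama5 window is chr2:180225860-180226109 on the minus strand and that of Lamb1 is chr12:31265043-31265292 on the plus strand.
Lama5: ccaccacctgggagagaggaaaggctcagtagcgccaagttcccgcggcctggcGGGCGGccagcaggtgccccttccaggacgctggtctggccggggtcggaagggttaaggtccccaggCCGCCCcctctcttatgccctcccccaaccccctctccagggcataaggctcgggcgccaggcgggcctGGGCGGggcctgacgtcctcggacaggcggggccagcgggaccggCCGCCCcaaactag
Lamb1: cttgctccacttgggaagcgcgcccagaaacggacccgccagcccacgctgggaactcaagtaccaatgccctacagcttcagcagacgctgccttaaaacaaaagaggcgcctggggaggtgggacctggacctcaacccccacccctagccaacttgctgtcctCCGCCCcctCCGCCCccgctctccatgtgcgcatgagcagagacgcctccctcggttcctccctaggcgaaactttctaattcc
The Lama5 window holds 4 GC boxes and that of Lamb1 holds 2, while those of Lama2, Lamb2 and Lamb3 (2 starts) hold 0. Of 32851 RefSeq promoter windows of this length, 32.7% hold at least 1. The GC content was 72.4% for Lama5 and 62% for Lamb1, against a median of 52.4%, and 93.6% of windows had less than Lama5. The TATA box TATAAA (12.4% of windows, either strand) and the GATA core AGATAA (9.99%, either strand) were in 0 of the laminin windows. The E-box CANNTG, which reads the same on either strand, was found at 2 places in the Lama5 window and 2 in that of Lamb1, and 66.2% of windows hold it. In these windows 0 E-boxes share letters with a GC box. The matches describe the letters only.

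Laminin receptors did not follow the alpha chains as a group. Of 10 listed receptor genes 7 were tested, 4 with a higher and 3 with a lower value in the collecting duct, and the median difference was 0.01. Limma called 0 of them, and 1 had an unadjusted p under 0.05, in the lower direction, beside 2.23% of all tested genes lower and 1.18% higher. That was Itga6, the integrin alpha subunit that joins with Itgb1 or Itgb4 to form laminin receptors. It read 12.55 in the collecting duct and 13.83, 14.41 and 14.86 in anlage arrays 1, 2 and 3, below all 3, a 3.52-fold lower value (difference −1.82 ± 0.52, SE; limma, unadjusted p = 0.0127, adjusted p = 0.9999 over all genes). A further probe set of Itga6 read 10.83 against 13.16, 11.17 and 12.94, a difference of −1.59.

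Of the other receptor genes, Itgb1, the shared beta subunit, read 12.44 in the collecting duct and 13.84, 10.92 and 11.58 in the anlage, a difference of 0.33 ± 1.12 (SE), and its probe sets differed in sign. That difference was −0.27 without anlage array 2 and 0.073 without array 3. The probe set standing for a gene was picked anew in each such fit. The Itgb1 value of −0.087 without array 1 is not one that the probe set above could give. It is therefore not read as an effect of that array. Dag1, which encodes dystroglycan, differed by −0.14 ± 0.55, or 0.17 without anlage array 1 and −0.48 without array 2, and the tetraspanin Cd151, a partner of laminin-binding integrins, by 0.20 ± 0.41. Their probe sets also differed in sign, and with the arrays scaled to a common median Cd151 was at −0.18. With the mean of all probe sets Itgb1 was at −0.18, Dag1 at 0.26 and Cd151 at 0.005. Itgb4, Itga7 and Bcam lay under the limit for testing. Of the enzymes that build the laminin-binding sugar of dystroglycan, 6 were measured and tested, 2 with a higher and 4 with a lower value. Their differences ran from −0.47 (Pomt1) to 0.35 (Gmppb), with 0.30 for B4gat1 and −0.35 for Rxylt1, and 0 were called. Without anlage array 1 Gmppb was at −0.0083 and B4gat1 at 0.48, without array 2 Gmppb was at 0.68, and without array 3 Rxylt1 was at −0.18.

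Among 16 tested partners of laminin in the basement membrane, 8 lay higher in the collecting duct and 8 lower, with a median difference of −0.0004. Limma called 0, and 1 had an unadjusted p under 0.05, in the higher direction, beside the same 1.18% of all genes higher and 2.23% lower. This was Npnt, which encodes nephronectin, a matrix ligand of integrins made by the ureteric bud. It read 14.96 in the collecting duct and 11.25, 13.43 and 12.55 in anlage arrays 1, 2 and 3, above all 3, and 5.85-fold higher (difference 2.55 ± 0.85, SE; limma, unadjusted p = 0.0238, adjusted p = 0.9999 over all genes). A bright sister probe set of Npnt differed by 2.71 and the dimmest by 1.93, the 2 others by 0.63 and −0.09, and with the mean of all 5 the difference was 1.54.

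Col4a4, a collagen IV chain of mature membranes, read 11.68 in the collecting duct and 10.29, 7.51 and 9.97 in the anlage, above all 3, a difference of 2.43 ± 1.13 (SE). Without anlage array 2 it was 1.43. Its other tested probe set read 10.19 in the collecting duct and 7.92, 10.37 and 7.17 in the anlage, where array 2 was the highest of the 4 arrays, a difference of 1.71 ± 1.26 at the probe set level. With the mean of its probe sets Col4a4 was at 1.40. Ntn4, a netrin that interferes with laminin assembly, read 8.30 in the collecting duct and 9.55, 10.26 and 9.26 in the anlage, below all 3, a difference of −1.39 ± 0.60. Its other probe set, under the limit for testing, differed by −0.21, and Ntn4 was at −0.80 with the mean of both and at −0.93 with the offset at the 50th percentile. Col18a1, a basement membrane collagen that carries heparan sulfate, read 14.27 against 13.84, 12.85 and 13.02, a difference of 1.03 ± 0.54, and its other probe set differed by 1.27. The remaining gamma chain with a tested probe set, Lamc3, read 9.35 against 8.59, 8.99 and 8.68, a difference of 0.60 ± 0.51. Its other probe set lay under the limit for testing and differed by −0.12, and the mean of both differed by 0.24.

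**Figure D5:**
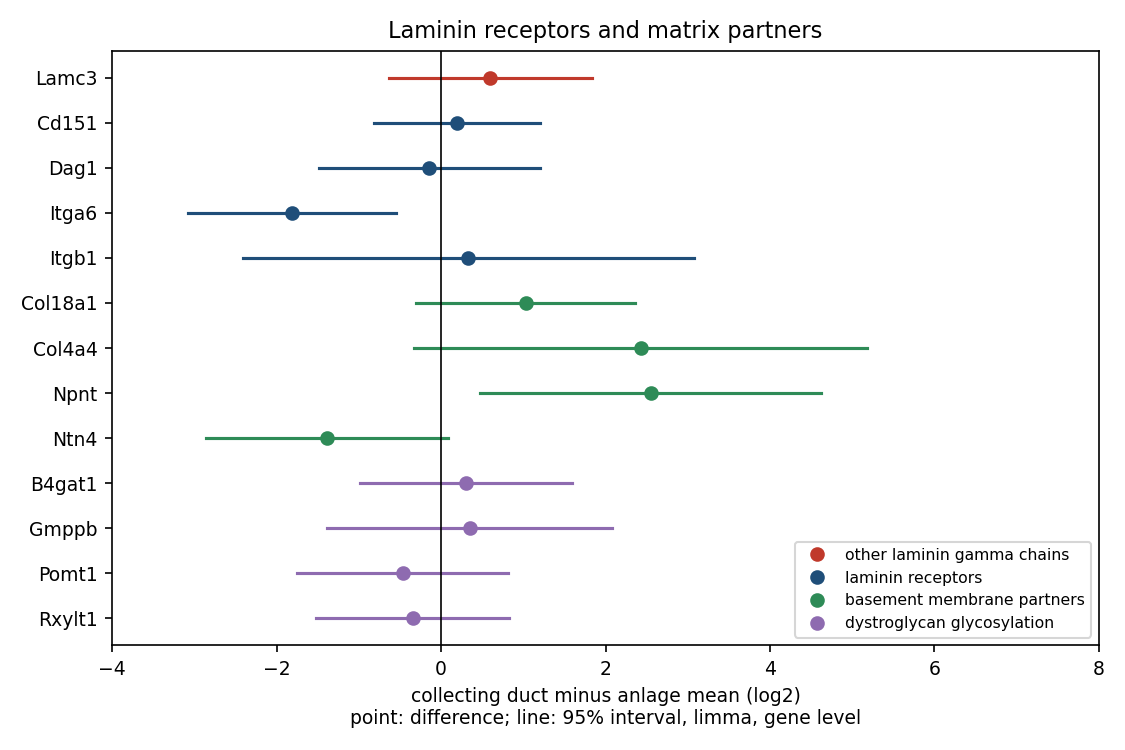
Difference between the collecting duct array and the anlage mean, in log2 units, for the tested receptor, matrix partner, sugar-building and gamma chain genes with the largest differences in their lists, with 95% intervals from limma at the gene level. Only the intervals of Itga6 (−3.08 to −0.55) and Npnt (0.47 to 4.62) leave out 0.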

How the data were processed

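RNA from 4 pools of laser-captured kidney tissue was measured on oligonucleotide arrays. The authors deposited linear probe set intensity values, and the submitters' processing notes name the software GCOS. Version and algorithm: not given in the sources used here. The mean after trimming 2% at each end was 1500 in every deposited array, and the medians ran from 206.9 to 526.5. Detection calls were not used here.

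From these, the arrays were quantile normalized, log2(signal + 109.6) was taken, and 64 control probe sets were dropped from 45101. Of the rest, 34945 had 1 gene symbol in the platform table, 932 several and 9160 none, and only the first were tested. By Entrez number 34741 matched the RefSeq gene table of GRCm38, and all 9 laminin symbols were the same there. Limma (version 3.58.1 in R 4.3.3) compared the groups through lmFit and eBayes (two-sided, intensity trend) over 12642 genes and, separately, 22499 probe sets, with 4.04 and 3.76 prior degrees of freedom. The fit was tested on simulated data. There the collecting duct array was drawn with a spread taken from the anlage arrays, so the assumption that it varies as they do was not tested. The number of arrays limits the precision.

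The laminin members and all gene lists were chosen with earlier results of these data known. All 9 members are named; of each other list, up to 4 tested genes with the largest absolute difference; for the most positive and the most negative laminin gene, the 3 genes of nearest profile. Lama5 minus Lama1 and the gaps between probe sets were chosen after their values were seen. Alternatives were 2 other normalizations, offsets at the 10th and 50th percentile, no filter and one at the 60th percentile, the mean of a gene's probe sets, eBayes without trend, and leaving out each anlage array.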

Additional observations from a re-analysis of the deposited data

How the results depend on the processing

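Lama5 stayed higher and Lama1 lower in the collecting duct array under all 11 alternatives. The Lama5 difference ran from 1.68 (mean of its probe sets) to 2.48, with an unadjusted p from 0.0027 to 0.064, and the Lama1 difference from −1.49 to −1.20, with an unadjusted p from 0.030 to 0.24. Their lowest adjusted p was 0.30 and 0.44, so neither was called in any of them, nor was any other laminin gene or probe set. Scaling to a common median moved the median of all genes by −0.18 and left 32.2% of genes with a higher value, against 45.1%; relative to that median Lama5 was at 2.34 and Lama1 at −1.25. Leaving out anlage array 1 moved it by −0.13, with Lama5 at 2.58 and Lama1 at −1.01 relative to it.

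When each anlage array was left out in turn, the genes called ran from 0 to 3 higher and 0 to 11 lower, and the probe sets from 0 to 2 higher and 0 to 9 lower. All of these calls came without array 2, in a fit with 1 residual degree of freedom. The count of genes at an unadjusted p under 0.05 was 1401 without array 1 and 192 without array 3, against 431 in all. The laminin genes above all remaining anlage arrays then ran from 1 to 3, and those below all of them from 1 to 3. Fewer arrays remained to be above or below, and the share of all genes in these fits is not given here. With all 3 anlage arrays kept, 2 lay above under either other normalization and with the mean of a gene's probe sets. The share of all genes above all 3 is not given for these settings either, so this count has no background. The share of all genes with a higher value also moved. It was 32.2% with a common median, 50.3% with the deposited values and 47.2% with the mean of probe sets, against 45.1%.

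Several differences changed sign as single arrays were left out, Lamc1 among them. Lama2 ran from −1.13 (without array 1) to 0.36 (without array 3), Lama3 from −0.42 (without array 1) to 0.55 (without array 3) and Lamc1 with its probe set 1423886_at from −0.075 (without array 2) to 2.04 (without array 1). Lamb1, by its probe set 1424114_s_at, ran from −0.22 (without array 2) to 0.015 (without array 3), and its probe set 1424113_at from −0.18 to 0.20. The Lama4 probe set 1424807_at ran from −0.29 (without array 1) to 0.12 (without array 2), being 0.073 without array 3. With the mean of all probe sets Lamb1 was at 0.27 and Lamc1 at 0.16. Apart from the loss of an array, the cause was not tested. No paired analysis was possible because the groups share only replicate number 3. With 1 collecting duct array, its own spread is not known.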
